A study of Mus musculus with 24 samples.

Results

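C/D-box small nucleolar RNAs (snoRNAs) were described in the limb buds of mouse embryos, taking every gene whose symbol begins with Snord and a digit. There were 83 such genes among 38019 symbols in each of 24 libraries, and 14 of the 83 were above 0 in any library. A gene was described at a stage when it reached 1 TPM (a level corrected for gene length and scaled to the same total in every library) in 3 or more of the 12 libraries of that stage. This left 10 genes at E10.5 (Snord8, Snord13, Snord15a, Snord15b, Snord16a, Snord17, Snord22, Snord43, Snord89 and Snord118) and 6 at E11.5 (Snord8, Snord15a, Snord15b, Snord17, Snord22 and Snord89). All 6 were among the 10.

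Forelimb (FL) and hindlimb (HL) buds of strain C57/Bl6 embryos were compared at 2 embryonic stages 1 day apart, E10.5 and E11.5. All embryos carried U11flx/flx, a floxed form of Rnu11, which encodes the U11 small nuclear RNA that recognizes 5′ splice sites of minor introns. Embryos labelled Prrx1-Cre- are called WT here and those labelled Prrx1-Cre+ mutant, so the WT embryos also carried the floxed alleles. Prrx1-Cre acts in limb bud mesenchyme, and ectoderm, blood and vessel cells of the bud lie outside its main domain. Stage, limb and genotype gave 8 groups of 3 libraries, made from total RNA with a stranded kit. Whether each library came from 1 embryo or from pooled buds, and whether FL and HL libraries of equal number shared an embryo, is not given in the sources used here, so p-values measure the spread between these libraries.

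A C/D-box snoRNA is a short nucleolar RNA held by fibrillarin, Nop56, Nop58 and Snu13. Most members use an antisense stretch to direct 2′-O-methylation of ribosomal RNA or of the U6 spliceosomal RNA. A few, such as U3, U8, U14 and U22, are needed for cutting or folding of the ribosomal RNA precursor. In vertebrates most are released from introns of host genes, many of them ribosomal protein genes or noncoding Snhg genes, while U8 and U13 have promoters of their own. The conserved C box, TGATGA, lies near the 5′ end and the D box, CTGA, near the 3′ end.

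Snord13, Snord22 and Snord118 had the clearest difference between the stages, being high in every E10.5 library and at or close to 0 at E11.5, and the sequences of Snord22 and Snord118 are shown for that reason. Sequences are those of the GENCODE M21 transcripts on GRCm38, 5′ to 3′, and capitals mark TGATGA within the first 20 bases and CTGA within the last 20 bases where they occur.
Snord22: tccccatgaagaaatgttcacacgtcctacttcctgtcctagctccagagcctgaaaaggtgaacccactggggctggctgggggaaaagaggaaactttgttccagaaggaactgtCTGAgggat
Snord118: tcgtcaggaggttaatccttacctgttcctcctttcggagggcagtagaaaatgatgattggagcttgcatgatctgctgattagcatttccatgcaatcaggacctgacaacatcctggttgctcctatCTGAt
Snord22 (U22) lies on chromosome 19 from 8725866 to 8725991 on the plus strand, 126 nt long, within Snhg1 and overlapping an exon of a Snhg1 transcript. Snord118 (U8) lies on chromosome 11 from 69073427 to 69073561 on the plus strand, 135 nt long, with no annotated host. TGATGA was not found in the first 20 bases of either, and CTGA was found in the last 20 bases of both.

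Another 3 snoRNAs, above 0 in all 24 libraries, held most of the Snord level at E11.5.
Snord15a: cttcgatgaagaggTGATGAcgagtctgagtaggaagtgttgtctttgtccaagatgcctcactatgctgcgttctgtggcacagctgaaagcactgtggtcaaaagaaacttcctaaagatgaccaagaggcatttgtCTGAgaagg
Snord15b: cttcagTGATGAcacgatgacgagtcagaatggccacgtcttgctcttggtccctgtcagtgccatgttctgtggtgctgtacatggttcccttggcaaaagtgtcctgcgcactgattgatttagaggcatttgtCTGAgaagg
Snord17: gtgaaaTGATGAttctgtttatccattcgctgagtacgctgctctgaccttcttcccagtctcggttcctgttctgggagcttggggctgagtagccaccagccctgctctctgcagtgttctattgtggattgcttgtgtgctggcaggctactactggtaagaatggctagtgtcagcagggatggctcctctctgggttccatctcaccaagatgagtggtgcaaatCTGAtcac
Snord15a and Snord15b, both guides for 28S ribosomal RNA, lie within Rps3 on chromosome 7 on the minus strand, from 99482785 to 99482932 and from 99479563 to 99479707. Their lengths are 148 and 145 nt, and a global alignment matched 107 of 162 columns, an identity of 66.0%. Snord15a is intronic, and Snord15b overlaps an exon of an annotated Rps3 transcript. Snord17, a guide for 28S ribosomal RNA and at 238 nt the longest Snord gene, lies in an intron of Snx5 on chromosome 2 from 144265979 to 144266216 on the minus strand. All 3 hold both TGATGA and CTGA in these windows.

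Snord89 is shown because it gave the largest fitted genotype differences at E11.5, and Snord14e because it stands for the many shorter members listed at 0.
Snord89: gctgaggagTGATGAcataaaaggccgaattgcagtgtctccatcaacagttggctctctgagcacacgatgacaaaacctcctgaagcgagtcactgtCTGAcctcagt
Snord14e: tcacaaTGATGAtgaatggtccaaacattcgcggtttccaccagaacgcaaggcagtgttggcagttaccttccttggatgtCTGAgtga
Snord89, 110 nt long, lies within the annotated gene Gm15832 on chromosome 1 from 39548745 to 39548854 on the minus strand. Snord14e, a U14 gene of 90 nt, lies within Hspa8 on chromosome 9 from 40804748 to 40804837 on the plus strand. Both hold TGATGA and CTGA in these windows.

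Over all 83 members, TGATGA was found in the first 20 bases of 54 (65.1%) and anywhere in 59 (71.1%), and CTGA in the last 20 bases of 81 (97.6%). Of 42 annotated Snora genes, the H/ACA-box snoRNAs that direct pseudouridylation, none held TGATGA and 5 (11.9%) held CTGA in the last 20 bases. On the opposite strand TGATGA was found in 1 of 83 Snord genes and CTGA in the last 20 bases of 4, and neither motif overlaps the other. Members above 0 and members at 0 in every library held TGATGA in the first 20 bases at similar shares, 9 of 14 (64.3%) and 45 of 69 (65.2%).

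Length separated the members above 0 from most of those at 0. All 65 members shorter than 94 nt were listed at 0 in all 24 libraries. Of the 18 members of 94 nt or more, 14 were above 0 in 1 or more libraries, and Snord83b, Snord116l1 and Snord116l2 at 94 nt and Snord90 at 111 nt were at 0. The same held outside the family: 1895 of 1896 annotated genes shorter than 94 nt were listed at 0 throughout, among them all 22 mitochondrial tRNA genes. Since tRNAs of mitochondria are present in all these cells, a value of 0 for a short member is a listed value and not a measured absence. The lowest value above 0 of any member was 9.14 TPM, so no member had a value near the 1 TPM rule, and 0.5 or 2 TPM in its place described the same number of genes. Of 39 Snora genes in the files, none of which is that short, 35 met the same rule at E10.5 and 19 at E11.5.

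**Figure D1:**
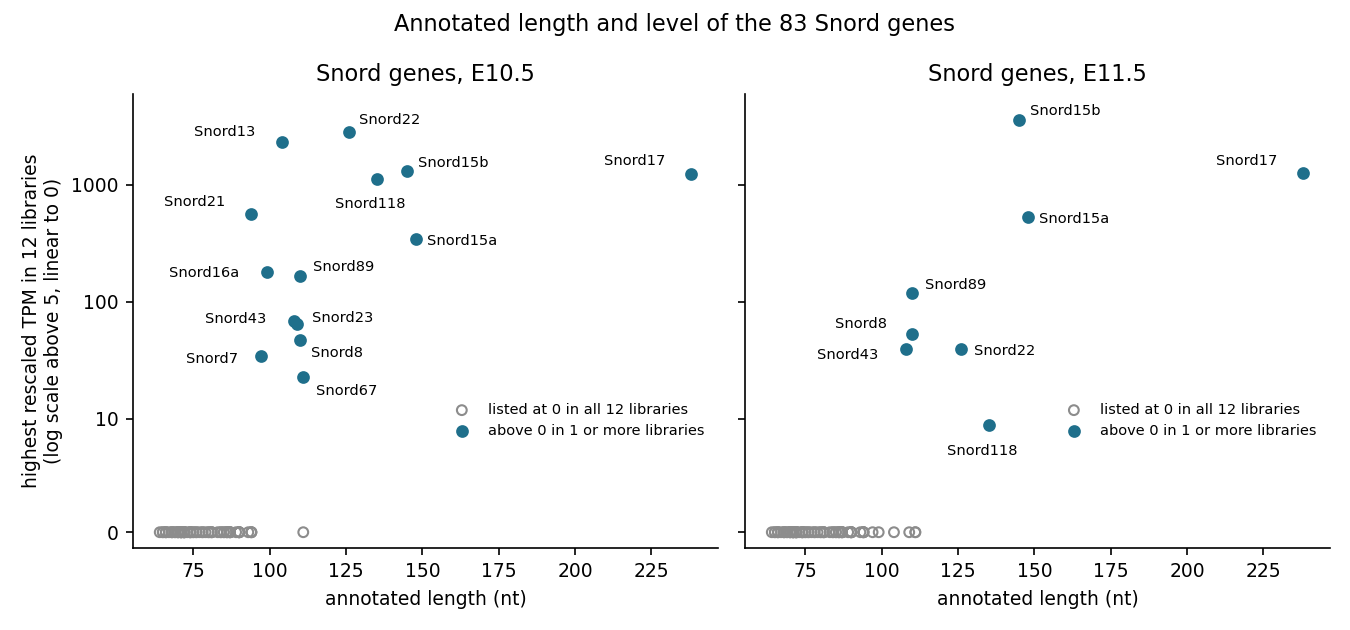
Annotated length (x axis, nt) and highest rescaled TPM over the 12 libraries of a stage (y axis, log scale above 5) of the 83 Snord genes at E10.5 (left) and E11.5 (right). Open circles at 0 are genes listed at 0 in all 12 libraries, and every gene shorter than 94 nt is among them at both stages.

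The lists of the family by role were thus measured very unevenly. Of the 7 members that act in precursor processing or have their own promoter, Snord13, Snord22 and Snord118 were above 0, and Snord14a, Snord14c, Snord14d and Snord14e, all of 86 to 90 nt, were listed at 0. Of 26 guides for 18S ribosomal RNA 2 were above 0 (Snord16a and Snord43), and of 33 guides for 28S ribosomal RNA 4 were above 0 (Snord15a, Snord15b, Snord17 and Snord21). All 3 guides for U6 in the files, Snord7, Snord8 and Snord67, were above 0 in 1 or more libraries. Both guides for 5.8S ribosomal RNA and all members hosted by Gas5, Rpl13a or Hspa8 on the lists were at 0. So were Snord64 and Snord107, the 2 imprinted orphans matched by symbol. Snord116l1 and Snord116l2, which lie within Snhg14 and were not matched by the list, were also at 0.

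Close to the level rule at E10.5, Snord43, Snord8 and Snord16a were inside it, above 0 in 3, 4 and 5 of 12 libraries. Snord21 and Snord23 were just outside with 2 libraries each, followed by Snord7 and Snord67 with 1 library each. At E11.5, Snord8, Snord22 and Snord89 were inside, above 0 in 3, 4 and 8 of 12 libraries. Snord43 and Snord118 were outside with 1 library each, and no other undescribed member was above 0.

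Before the comparisons, each library was rescaled so that its median gene equalled that of the other libraries of its stage. TPM carry no read depth, the total was 1000000 in every library, and protein-coding genes held 13.6 to 32.8% of it. The number of genes above 0 ranged from 16133 to 26302 per library. The deleted gene was checked first. Rnu11 was 1065 to 1149 rescaled TPM in E11.5 FL WT and 116 to 201 in E11.5 FL mutant libraries, and 787 to 1798 against 293 to 365 in HL. At E10.5 HL the ranges were 495 to 836 in WT and 190 to 316 in mutant libraries, but in E10.5 FL they overlapped: the library labelled WT replicate 1 had 292 and that labelled mutant replicate 3 had 570. Several E10.5 FL results are therefore also given without these 2 libraries. Limb mesenchyme markers (6 of 6) were above 0 in every library, and the summed level of FL and HL identity markers was 2.92 to 13.0 in FL and 20.6 to 41.0 in HL libraries. This sum hides single markers. E10.5 FL mutant replicate 3 had 1.81 of Pitx1 and 1.99 of Tbx4, both HL markers. The E10.5 FL WT libraries had at most 0.107 and 0.785, and the E10.5 HL WT libraries at least 7.35 and 5.81. Its Tbx5, an FL marker, was 2.14, against 2.62 to 11.7 in E10.5 FL WT. A limb bud holds several cell types, and fewer cells of a type and less RNA per cell cannot be told apart in these bulk libraries.

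Summed over the family, Snord genes took 0.256 to 0.653% of all TPM in E10.5 libraries and 0.227 to 0.456% in E11.5 libraries. What made up this sum differed. At E10.5, Snord13, Snord22 and Snord118 together gave 53.0 to 70.7% of it in each library, and Snord15a, Snord15b and Snord17 gave 25.3 to 43.4%. At E11.5 the first 3 gave 0 to 0.990% and the other 3 gave 94.1 to 100%. The ranges of the 2 stages did not overlap for either set. Both sets were chosen from these same values and are shares of 1 sum, so this separation follows largely from that choice. Between 6 and 11 Snord genes were above 0 in an E10.5 library and between 3 and 6 in an E11.5 library.

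Snord22 at E10.5 was 1838, 718 and 1165 rescaled TPM in the 3 FL WT libraries and 2824, 1062 and 2535 in the FL mutants. In HL it was 1935, 953 and 597 in WT and 1283, 1355 and 1314 in mutants. It was thus the highest Snord gene at that stage by its mean over the 12 libraries. At E11.5 it was listed at 0 in 8 of 12 libraries, and its 4 values above 0 were 13.7 in FL WT, 39.3 in FL mutant and 19.4 and 11.6 in HL WT.

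Snord13 at E10.5 was 1543, 221 and 1018 in FL WT and 1003, 666 and 2291 in FL mutants. In HL it was 499, 1639 and 718 in WT and 518, 425 and 442 in mutants. Groups overlapped apart from the mutants, where all HL libraries were below all FL libraries. It was listed at 0 in all 12 E11.5 libraries.

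Snord118 at E10.5 was 215, 360 and 472 in FL WT and 1075, 557 and 721 in FL mutants. In HL it was 1124, 576 and 359 in WT and 273, 440 and 536 in mutants. At E11.5 it was listed at 0 in 11 of 12 libraries and was 8.78 in 1 HL WT library. Snord118 shares 35 of its 106 overlapping 30-base stretches with the predicted gene Gm24208, so its level could be split with that gene. Snord22 shares all of its stretches with Snhg1 transcripts, and Snord15b and Snord16a all of theirs with Rps3 and Rpl4.

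Snord15b had the opposite order of stages. At E10.5 it was 477, 374 and 1310 in FL WT, 860, 352 and 1006 in FL mutants, 605, 361 and 468 in HL WT and 449, 168 and 626 in HL mutants. At E11.5 it was 2443, 1401 and 1932 in FL WT, 2576, 1093 and 1187 in FL mutants, 3588, 2610 and 1487 in HL WT and 2560, 2363 and 1775 in HL mutants. On a scale common to all 24 libraries its means were 504 TPM (E10.5) and 2425 TPM (E11.5), a ratio of 4.81, the highest among the 6 snoRNAs described at both stages.

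Snord15a and Snord17 followed with ratios of 2.57 and 1.76, their common-scale means being 158 and 407 TPM for Snord15a and 648 and 1142 for Snord17. The 3 lowest ratios were 0.00652 for Snord22, 0.934 for Snord8 and 1.00 for Snord89. Within single libraries Snord15b was 1.46 to 6.90 times Snord15a at the earlier stage and 3.33 to 9.14 times at the later, although both lie in Rps3. Rps3 itself ranged from 325 to 632 rescaled TPM in E10.5 libraries, and in E11.5 libraries from 358 to 531. Snhg1, the host of Snord22, ranged from 97.6 to 161 in E10.5 libraries, and in E11.5 libraries from 43.1 to 69.2. These host values were rescaled within each stage only, so they cannot be set against the common-scale ratios above.

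**Figure D2:**
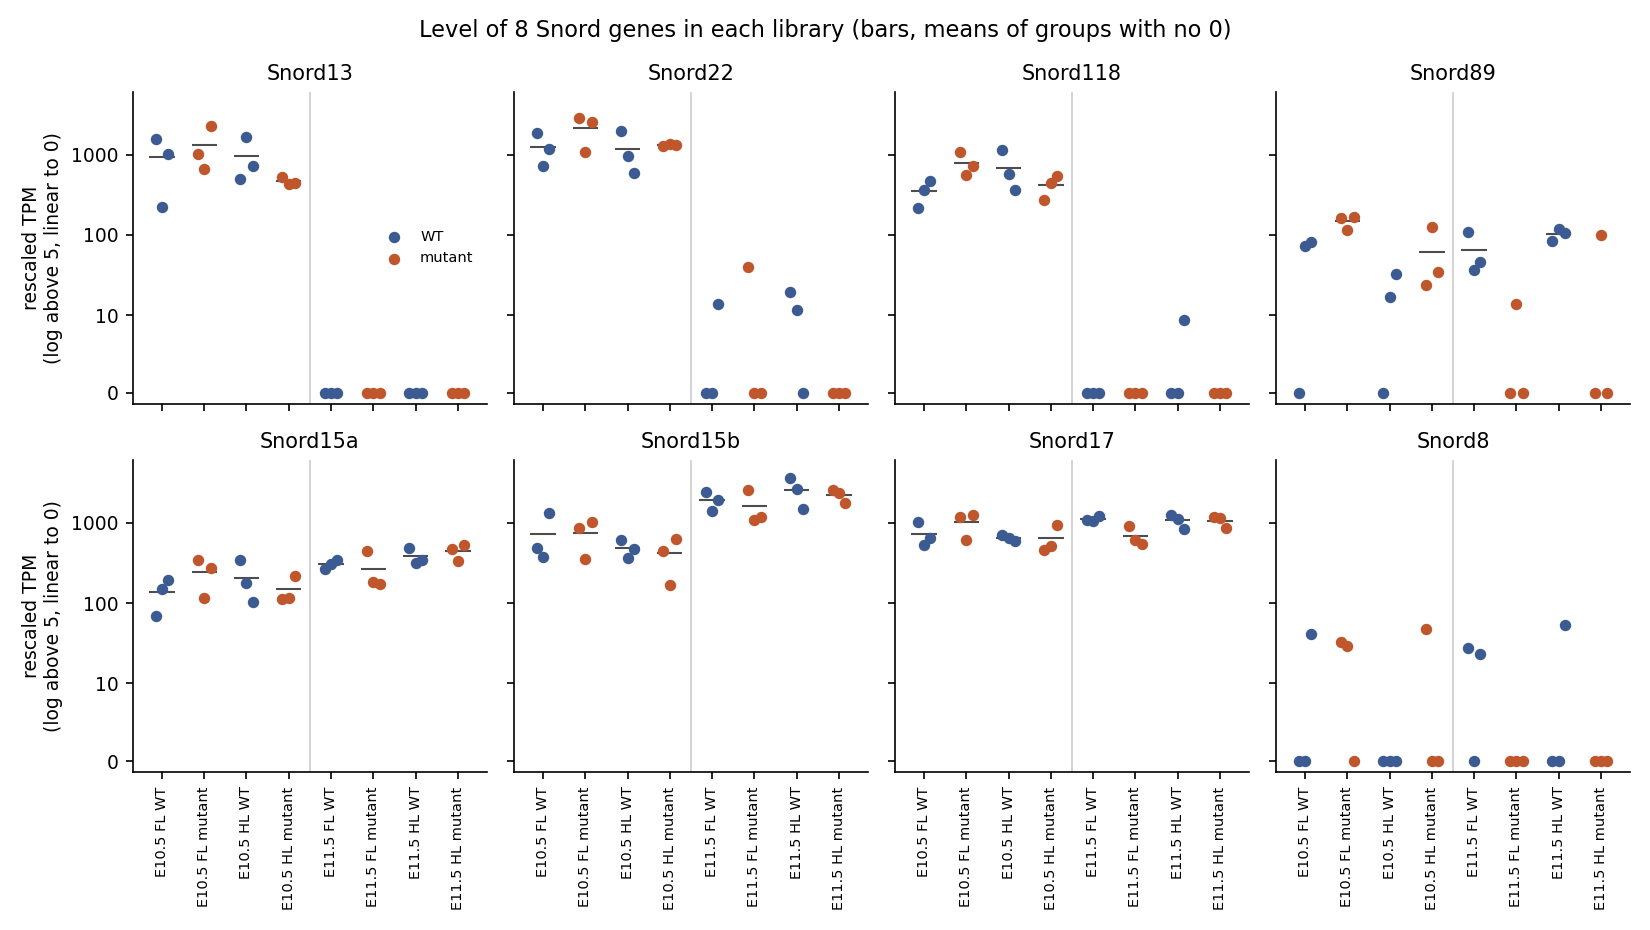
Rescaled TPM (y axis, log scale above 5) of 8 Snord genes in each of the 24 libraries by group (x axis), with WT in blue, mutant in orange and a bar at the mean of groups with no value at 0. Snord13, Snord22 and Snord118 are high in all 12 E10.5 libraries and at 0 in most E11.5 libraries, while Snord15a, Snord15b and Snord17 are above 0 in all 24.

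The difference between stages followed the genome strand of the gene, and it was shared with other snoRNAs. Among all annotated snoRNA genes with a median of 2 TPM or more over the E10.5 libraries (deposited values), 61 lay on the plus strand, and 50 of these had a median of 0 at E11.5. On the minus strand 3 of 48 had a median of 0 at E11.5 and 40 of 48 were higher than at E10.5. For Snora genes the counts at a median of 0 were 16 of 18 on the plus and 1 of 14 on the minus strand. Snord22 and Snord118 lie on the plus strand, and Snord15a, Snord15b, Snord17 and Snord89 on the minus strand. Snord13 was an exception, lying on the minus strand and at 0 in every E11.5 library.

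Protein-coding genes with more than 1 exon showed a smaller shift of the same kind, with a median log2 difference of E11.5 minus E10.5 of -0.71 over 4170 plus-strand genes and -0.11 over 4160 minus-strand genes. The share of snoRNA TPM on the plus strand was 41.9 to 66.3% in the 12 E10.5 libraries and 3.46 to 7.84% in the 12 E11.5 libraries. Per the labels, reads of the E10.5 libraries were trimmed by 3 nt at the 3′ end, and the E11.5 labels carry no such note. Stage, trimming and any other difference in how the 2 sets were processed cannot be told apart, so the values of the 2 stages are given side by side without a test.

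**Figure D3:**
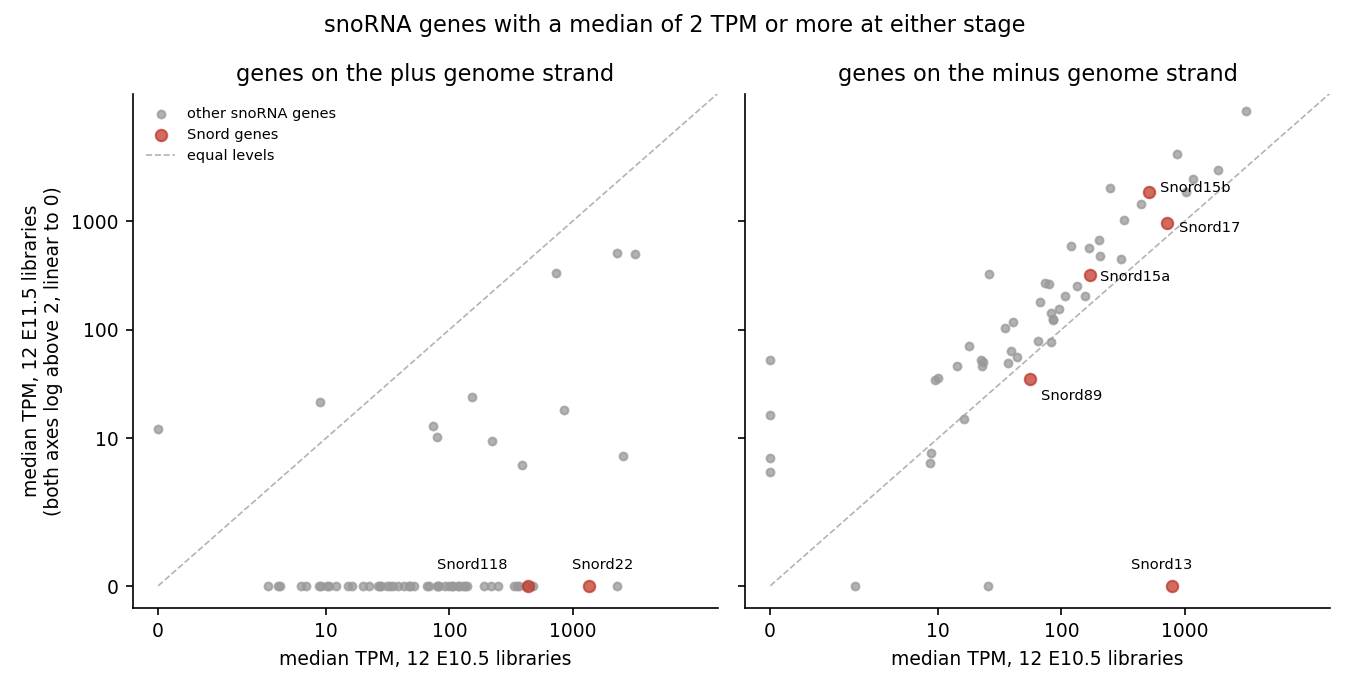
Median TPM over the 12 E10.5 libraries (x axis) and the 12 E11.5 libraries (y axis), both log above 2, of snoRNA genes on the plus (left) and minus (right) genome strand; red points are Snord genes, grey points other snoRNA genes and the dashed line equal levels. Of the plus-strand genes with a median of 2 TPM or more at E10.5, 50 of 61 lie at 0 at E11.5, against 3 of 48 on the minus strand.

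The scarcer members had values in few libraries. Snord16a, a guide for 18S ribosomal RNA within Rpl4, was above 0 only at E10.5, at 178 and 81.4 in 2 FL WT, 102 and 163 in 2 HL WT and 95.5 in 1 FL mutant library. It was listed at 0 in all 3 HL mutant libraries. Snord8, a guide for U6 within Chd8, was above 0 in 4 E10.5 libraries at 28.9 to 47.1 and in 3 E11.5 libraries, all WT, at 23.1 to 52.7. Snord43, a guide for 18S ribosomal RNA within Rpl3, was above 0 in 3 E10.5 libraries at 17.1 to 68.0 and in 1 HL mutant library at E11.5 at 39.9. The annotation used here types the Snord43 gene as a miRNA, unlike the other described members, which it types as snoRNA.

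Most such values came in whole steps. In 14 libraries the genes of 94 to 111 nt had deposited values that were mostly whole multiples of a single step per library, within a tolerance of 0.02 of a step. Snord89 was a whole multiple in 13 of 13 such values, at 1 to 7 steps, Snord8 in 5 of 5, at 1 to 2 steps, Snord43 in 3 of 3, at 1 to 2 steps, and Snord16a in 5 of 5, at 2 to 6 steps. Snord13 was a whole multiple in 10 of 10, at 6 to 96 steps, Snord23 in 2 of 2 and Snord7 in 1 of 1. Snord21 in 0 of 2 values and Snord67 in 0 of 1 were the exceptions among the members of this length. Each step was chosen to give many whole multiples among these genes, members included, so these counts partly follow from that choice. Differences among the scarcer members thus rest on a few steps per library.

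Mutant was compared with WT within each limb and stage by limma on log2(rescaled TPM + 1), with Benjamini-Hochberg adjustment over all genes tested and a threshold of 0.05. No Snord gene passed in any limb or stage. The deleted gene Rnu11 itself passed only in E11.5 FL (-2.92 ± 0.27, SE, limma adjusted p = 0.00066). It did not pass in E11.5 HL (-1.90 ± 0.27, limma adjusted p = 0.0764). Nor did it pass in E10.5 FL (-1.55 ± 0.60, limma adjusted p = 0.904) or E10.5 HL (-1.46 ± 0.60). A Snord difference of the size seen for Rnu11 at E10.5 could thus go uncalled. At E10.5, 0 of 10 Snord genes passed in FL, where 0.0251% of 11955 genes did, and 0 of 10 in HL, where 0.00836% did. An unadjusted p under 0.05 was reached by 1 of 10 in FL, against 5.24% of all genes, and by 0 of 10 in HL, against 1.99%. The 6 members above 0 in all 12 libraries (Snord13, Snord15a, Snord15b, Snord17, Snord22 and Snord118) had a median log2 difference of 0.74 in FL, against 0.02 over all genes. All 6 values were positive there, but that of Snord15b was -0.080 on the deposited TPM and -0.35 without the 2 doubted libraries. In HL the median of the 6 was -0.38, against 0.01, with 1 value positive and 5 negative, and on the deposited TPM that of Snord17 turned to 0.016. The rescaled sum of Snora genes moved the same way in both limbs, with overlapping groups. Its median was 5341.5 in FL WT and 11020 in FL mutants, and 6846.2 in HL WT and 4866 in HL mutants.

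In E10.5 FL the smallest p belonged to Snord118, which takes part in maturation of 28S and 5.8S ribosomal RNA. Its values, given above, did not overlap, all 3 mutants being above all 3 WT libraries, with a log2 difference of 1.18 ± 0.44 (SE, n = 3 per group, limma adjusted p = 0.904). Without the 2 doubted libraries the difference was 0.91. Snord89 was 0, 73.6 and 81.4 in FL WT and 162, 116 and 167 in FL mutants, again without overlap (log2 difference 3.01 ± 1.62, SE, limma adjusted p = 0.904). This value leans on the WT library at 0, which is replicate 1, and was 0.82 without the 2 doubted libraries. Snord22 differed by 0.77 ± 0.49 (limma adjusted p = 0.924), and by 0.92 without the 2 doubted libraries. Here and below, a lack of overlap only describes 3 against 3 libraries. The share of all genes without overlap was not counted.

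Erythroid marker RNA moved with these libraries: the summed level of 8 of 8 markers was 4791 to 5943 in E10.5 FL mutants and 2249 to 3065 in FL WT. It was 2066 to 2968 in HL mutants and 1523 to 3681 in HL WT. The part of these cells in the Snord118 and Snord89 values was not tested.

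In E10.5 HL, Snord118 differed by -0.62 ± 0.44 (SE, limma adjusted p = 1), with overlapping groups. Snord89 was 0, 17.1 and 32.7 in HL WT and 23.5, 125 and 34.0 in HL mutants, a log2 difference of 2.49 ± 1.62 with overlap, which was 0.95 without WT replicate 1, the library at 0. Snord16a had the smallest p, being at 0 in every mutant and in 1 of 3 WT libraries, and no fold is given for it. The 95% intervals of Snord15a, Snord15b, Snord17 and Snord22 all held 0 in both limbs. That of Snord17 ran from -0.33 to 1.23 in FL and from -0.87 to 0.69 in HL, and that of Snord15b from -1.14 to 1.40 and from -1.64 to 0.90, so differences within these intervals are not excluded.

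At E11.5, 0 of 6 Snord genes passed in FL, where 1.74% of 11126 genes did, and 0 of 6 in HL, where 0.018% did. An unadjusted p under 0.05 was reached by 2 of 6 in FL, against 22.5% of all genes, and by 1 of 6 in HL, against 6.02%. Only Snord15a, Snord15b and Snord17 were above 0 in all 12 libraries, and no median is given over the 6, since the others were at 0 in many mutant libraries.

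Snord17 was 1083, 1034 and 1210 in E11.5 FL WT and 915, 601 and 545 in FL mutants. All 3 mutants lay below all 3 WT libraries, with a log2 difference of -0.73 ± 0.22 (SE, n = 3 per group, limma adjusted p = 0.0979). Leaving out mutant replicate 1, the highest of the mutants, brought it to -0.95 with a limma adjusted p of 0.0445, and leaving out each other library gave adjusted p-values of 0.109 to 0.278. On the deposited TPM, where the median gene was 0.39 higher in mutants, the difference was -0.21 (limma adjusted p = 0.369). In HL the values were 1248, 1124 and 827 in WT and 1189, 1146 and 855 in mutants, a log2 difference of 0.00 ± 0.22 with a 95% interval from -0.49 to 0.49. The fall in FL was shared with Snora genes and with RNAs outside both families. The rescaled sum of Snora genes was 7293.6 to 8199.1 in E11.5 FL WT and 3703.1 to 7195.5 in FL mutants, without overlap. On the deposited TPM these Snora sums overlapped, and in HL they overlapped after rescaling. Rescaled Scarna sums were 3614.5 to 5450.2 in E11.5 FL WT and 2056.2 to 3315.2 in FL mutants. Rn7s1 was 11656 to 16572 and 7130.8 to 9906.1, and Rn7s2 did not overlap either. The protein-coding share of TPM was higher in all 3 FL mutants than in all 3 WT libraries. The rescaling factors were 0.954 to 1.22 in FL WT and 0.705 to 0.915 in FL mutants. In HL all of these overlapped. Whether Snord17 differed apart from these RNAs, or from this shift in rescaling, was not tested.

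Summed markers of 3 other cell types also did not overlap between E11.5 FL WT and FL mutants. Surface ectoderm markers were 43.1 to 60.9 in E11.5 FL WT and 36.0 to 41.6 in FL mutants, with 7 of 7 above 0. Summed myogenic markers were 5.47 to 5.71 in E11.5 FL WT and 8.55 to 10.1 in FL mutants, and endothelial markers 9.91 to 12.2 and 13.4 to 18.9, with 6 of 6 markers of each of these 2 lists above 0. Their part in the Snord17 values, and in those of Snord89 below, was not tested.

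Snord89, which has no known target RNA, was 109, 37.0 and 46.2 in E11.5 FL WT and was listed at 0 in 2 FL mutants and at 13.7 in the other. In HL it was 84.4, 119 and 105 in WT and was listed at 0 in 2 mutants and at 99.6 in the other. It was thus above 0 in 6 of 6 WT and 2 of 6 mutant libraries at E11.5, against 4 of 6 WT and 6 of 6 mutant libraries at E10.5. The groups did not overlap in FL (log2 difference -4.57 ± 1.55, SE, limma adjusted p = 0.120) and overlapped in HL (-4.47 ± 1.55, limma adjusted p = 0.754), where the difference was -6.71 without mutant replicate 2. With values at 0 these sizes depend on the pseudocount, and with 0.1 in place of 1 the FL difference was -6.79. On the deposited TPM, on which 3733 genes passed in E11.5 FL (3691 higher and 42 lower, against 53 and 141 after rescaling), Snord89 passed with -4.27 and a limma adjusted p of 0.0360.

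Snord15a was 267, 303 and 342 in E11.5 FL WT and 444, 181 and 172 in FL mutants, a log2 difference of -0.33 ± 0.33 with overlap. In HL it was 485, 315 and 342 in WT and 474, 335 and 534 in mutants (0.23 ± 0.33). Snord15b, with values given above, differed by -0.33 ± 0.38 in FL and -0.13 ± 0.38 in HL. The 95% intervals of both Rps3-hosted snoRNAs held 0 in both limbs, and the FL differences of both turned positive on the deposited TPM, at 0.19 each. Snord8 was at 0 in all 6 mutant libraries and in 3 of 6 WT libraries, and Snord22 at 0 in 5 of 6 mutant and 3 of 6 WT libraries, and no fold is given for them.

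**Figure D4:**
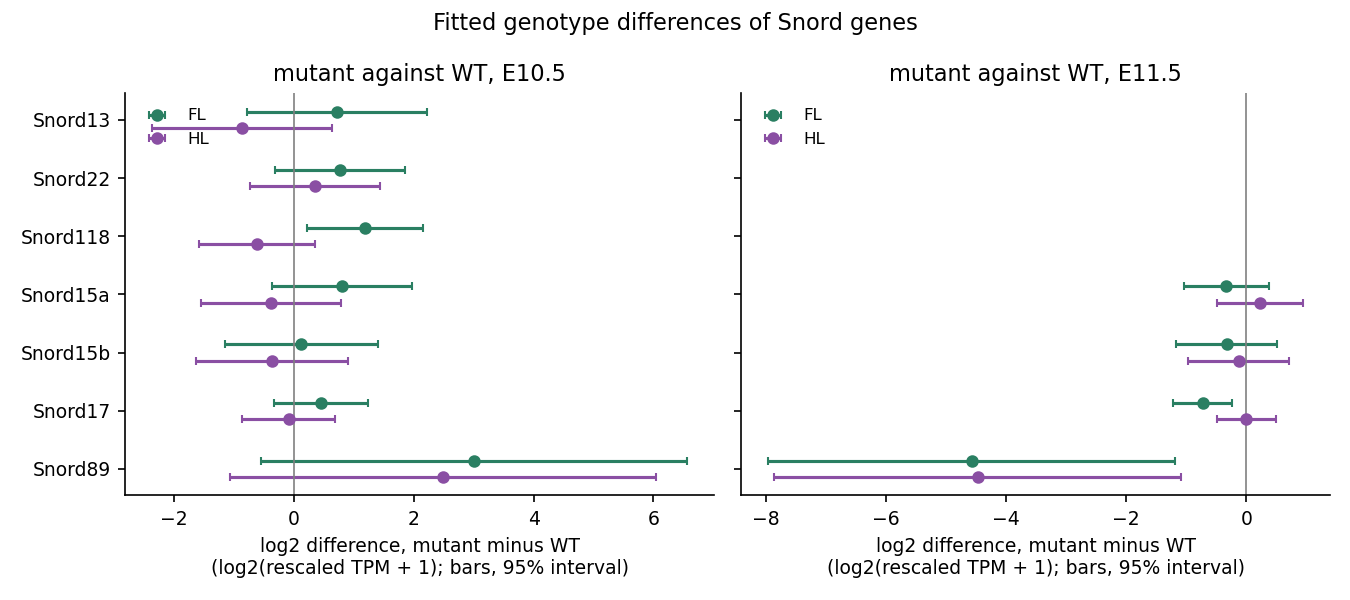
Fitted log2 difference of mutant minus WT (x axis) with its 95% interval for Snord genes (y axis) at E10.5 (left) and E11.5 (right), in FL (green) and HL (purple); genes with too few values at E11.5 are not drawn. Intervals that leave out 0 are those of Snord118 in E10.5 FL, Snord17 in E11.5 FL and Snord89 in both limbs at E11.5, and no Snord gene passed after adjustment.

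HL was compared with FL within each genotype. At E10.5, 0 of 10 Snord genes passed in WT, where 0.092% of genes did, and 0 of 10 in mutants, where 0.0586% did. None reached an unadjusted p under 0.05 in either, against 9.56% of all genes in WT and 6.67% in mutants. In WT the leading members were Snord118 at 0.89 ± 0.44 (limma adjusted p = 0.558) and Snord15a at 0.54 ± 0.53, which without FL WT replicate 1 became 0.58 and 0.10. In mutants the 6 members above 0 in every E10.5 library had a median of -0.78, against -0.02 over all genes, and all 6 values were negative, but on the deposited TPM, where the median gene was 0.45 higher in HL, that of Snord22 was 0.0033. The rescaled sum of Snora genes was also lower in these HL mutants, with a median of 4866 against 11020 in FL mutants and overlapping ranges. Snord118 (-0.91 ± 0.44) and Snord13 (-1.32 ± 0.68) were lower in all 3 HL than in all 3 FL mutants, and Snord17 differed by -0.66 ± 0.36 with overlap, the limma adjusted p-values of the 3 being 0.784, 0.852 and 0.873. Without FL mutant replicate 3 these became -0.95 for Snord118, -0.83 for Snord13 and -0.47 for Snord17, and on the deposited TPM -0.33, -0.74 and -0.081.

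Summed markers of 4 other cell types did not overlap between these FL and HL mutants. Erythroid markers were 4791 to 5943 in FL and 2066 to 2968 in HL, and myogenic markers 9.11 to 10.8 and 4.30 to 4.78, with 1 of 6 myogenic markers at 0 in all 3 HL libraries. Neural and Schwann markers were 12.6 to 14.9 in FL and 8.90 to 10.9 in HL, and endothelial markers 17.9 to 21.3 and 23.7 to 38.2. Their part in the Snord118, Snord13 and Snord17 values was not tested.

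At E11.5, 0 of 6 Snord genes passed in WT, where 0.144% of genes did, and 0 of 6 in mutants, where 0.44% did. An unadjusted p under 0.05 was reached by 0 of 6 in WT, against 6.94% of all genes, and by 2 of 6 in mutants, against 16.1%. In WT, Snord15a differed by 0.30 ± 0.33 and Snord15b by 0.36 ± 0.38, with overlapping groups. In mutants, Snord17 was 0.65 ± 0.22 and Snord15a 0.87 ± 0.33 higher in HL on the log2 scale (limma adjusted p = 0.220 and 0.240), and their groups overlapped. On the deposited TPM, where the median gene was 0.44 lower in HL and 5140 genes passed (28 higher and 5112 lower, against 29 and 20 after rescaling), these were 0.13 for Snord17 and 0.34 for Snord15a. Without FL mutant replicate 1 the Snord15a difference was 1.31. Between the same mutants, surface ectoderm markers were 36.0 to 41.6 in FL and 51.5 to 68.9 in HL, and myogenic markers 8.55 to 10.1 and 3.90 to 5.13, and their part in these values was not tested.

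Whether the genotype difference depended on the limb was tested by the interaction of both. At E10.5, 0 of 10 Snord genes passed, as did 0% of all genes, and at E11.5, 0 of 6 passed, against 0.00899% of all genes. The smallest p at E10.5 was that of Snord118, with an HL effect 1.80 lower than the FL effect on the log2 scale (-1.80 ± 0.62, SE, unadjusted p = 0.0141, limma adjusted p = 1.00). The smallest at E11.5 was that of Snord17 (0.73 ± 0.32, unadjusted p = 0.0409, limma adjusted p = 0.357), which was 0.12 on the deposited TPM. An unadjusted p under 0.05 was reached by 1 of 10 at E10.5, against 2.49% of all genes, and by 1 of 6 at E11.5, against 13.4%.

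The proteins that bind and assemble these RNAs were also followed. Of 19 listed genes, among them Fbl, Nop56 and Nop58 of the core particle, 17 were tested and none passed in any of the 10 comparisons. Their median log2 differences of mutant minus WT at E10.5 were 0.15 for FL and 0.07 for HL, and those at E11.5 were 0.16 for FL and 0.06 for HL, against -0.03 to 0.02 over all genes. Fbl, the methyltransferase, was 16.9 to 18.8 rescaled TPM in E11.5 FL WT and 21.7 to 24.1 in FL mutants, without overlap, and 18.3 to 22.3 against 18.4 to 21.2 in HL.

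Of 17 listed snoRNA host genes 15 were tested, and 1 passed in 1 of the 10 comparisons. That gene was Snhg3, within which no Snord gene lies, and 1.74% of 11126 genes passed in the same comparison. Snhg3 rose in E11.5 FL mutants by 0.89 ± 0.20 on the log2 scale (SE, n = 3 per group, limma adjusted p = 0.0490). The call was lost when any 1 of the 6 libraries was left out, with adjusted p-values of 0.0585 to 0.139 and differences of 0.77 to 1.05. The hosts of the described snoRNAs had small differences that did not pass: in E11.5 FL Rps3 differed by -0.15 ± 0.13, Snx5, the host of Snord17, by 0.03 ± 0.14 and Snhg1 by -0.20 ± 0.17. In E10.5 FL, Snhg1 differed by 0.46 ± 0.17 and Snx5 by 0.34 ± 0.14, with a limma adjusted p of 0.904 for each.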

How the data were processed

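The authors sequenced total RNA of limb buds. HISAT2 and the build mm10 are named in the submitters' processing notes, while no source used here names the quantifier, its annotation or its strand setting. The authors deposited TPM by gene symbol, which sum to 1000000 per library and keep no read depth. Per the labels, E10.5 reads were trimmed by 3 nt. Groups of 3 libraries were taken from the labels, and none was left out of the main results.

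Libraries of a stage were rescaled to 1 common median of log2 TPM, taken over the genes that reach 5 TPM in all of them (4168 genes at E10.5, 3949 at E11.5), and over both stages for ratios between stages (3518). Genes that reached 1 TPM in 3 or more of the 12 libraries were tested on log2(TPM + 1) with limma 3.58.1 (R 4.3.3, eBayes with trend), two-sided, with Benjamini-Hochberg adjustment over all genes tested. On simulated data with the E10.5 FL layout and 11955 genes, 65% of 2-fold and 95% of 4-fold changes were recovered, and 87% and 97% with the E11.5 FL layout and 11126 genes. The changed genes were drawn from all genes above a low level, so these shares were not measured on Snord genes. Each simulation held 200 changed genes, with noise independent between genes. The real E10.5 FL comparison called 3 genes, and Rnu11 was not among them. These shares can therefore overstate what the real tests would find. For Snord genes the SE in E10.5 FL ran from 0.36 (Snord17) to 2.37 (Snord16a). Coordinates and sequences are from GENCODE M21, which matched 36217 of 38019 symbols and all 83 Snord symbols. The sequence of 1 described member is not reported here. A host is an annotated gene that contains the snoRNA on the same strand.

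Members and gene lists were chosen with earlier results of these data known. Named members are the 8 highest of each stage, those passing a test or else the 3 smallest p of a comparison, the processing snoRNAs, the 3 largest and 3 smallest ratios between stages and those nearest to the level rule. Alternatives were the deposited scale, the pseudocount, the filter, the libraries fitted, a replicate block and leaving out libraries. Rescaling on genes of the same genome strand was chosen after seeing the data.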

Additional observations from a re-analysis of the deposited data

How the results depend on the processing

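No Snord gene passed in 141 of 143 recomputed comparisons. The exceptions were both in E11.5 FL mutants against WT: 1 gene passed on the deposited TPM (Snord89), and leaving out single libraries gave 0 to 1 (Snord17 without mutant replicate 1). Of 531 recomputed values of the named Snord genes, 506 kept their direction and side of the threshold and 2 crossed the threshold.

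On the deposited TPM the difference of mutant minus WT changed sign for Snord15b in E10.5 FL (-0.080), Snord17 in E10.5 HL (0.016), Snord15a and Snord15b in E11.5 FL (0.19 and 0.19) and Snord17 in E11.5 HL (-0.089), and so did the interaction of Snord15a at E11.5 (-0.046). The sign of Snord15b in E10.5 FL also changed without the 2 doubted libraries (-0.35), and that of Snord17 in E11.5 HL with all 24 libraries in 1 fit (-0.0062). The cause was not tested.

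Leaving out single libraries changed the sign in 8 results, all mutant against WT and none past the threshold. In E10.5 FL the range was -0.12 to 1.28 for Snord13 and -0.23 to 0.67 for Snord15b. In E10.5 HL it was -0.81 to 0.062 for Snord15a, -0.77 to 0.18 for Snord15b, -0.41 to 0.11 for Snord17 and -0.044 to 0.80 for Snord22. In E11.5 HL it was -0.47 to 0.17 for Snord15b and -0.17 to 0.15 for Snord17. Values at 0 and few steps per library limit Snord8, Snord16a, Snord43 and Snord89.

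Libraries of equal number correlated in their residuals above 0.1 in all 3 pairs only between E10.5 FL and HL mutants (0.106 to 0.198). With the replicate block no Snord gene passed in any comparison (0 called), and Rnu11 in E11.5 HL reached -1.90 with a limma adjusted p of 0.0307, against 0.0764 without the block. Rescaling on genes of the same strand changed no call of a Snord gene.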
